A study of Mus musculus with 12 samples.

Results

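The tumours described here are the 7 malignant peripheral nerve sheath tumours (MPNST) whose labels give a mixed strain background, C57BL/6J x SJL/J. That label alone chose them, and they are A202, A394, A18, A292, A390, A382 and the tumour titled 231 Trig. They supply 8 of the 12 arrays and 7 of the 11 tumours of the series, because A382 was hybridised at passage 8 and again at passage 9 and its 2 arrays were averaged into 1 sample. All 11 tumours came from mice carrying the P0-GGFβ3 transgene, in which a promoter active in Schwann cells drives a neuregulin-1 isoform. The other 4 tumours, B86, B91, B96 and B76, carried the same transgene on a C57BL/6J background and are used only to show where the mixed tumours differ. On every array the tumour DNA was labelled with Cy5 and set against 1 kind of reference labelled with Cy3, genomic DNA of wild-type, non-neoplastic C57BL/6J Schwann cells. The tumour DNA came from cultured cells that were started with forskolin and NRG1β and then kept without either, while the Schwann cells were kept in both throughout. Sample titles place the mixed cultures at passages 5 (A394), 6 (A202), 7 (A390), 8 (A292, A382), 9 (A382) and 11 (A18), with no passage for 231 Trig, while the growth notes state a limit of 5 to 8 passages. Each tumour is 1 culture, no array had its dyes exchanged, and the reference shares its whole strain with the C57BL/6J tumours but only part of it with the mixed ones. A strain difference and a tumour change therefore cannot be told apart in a mixed tumour's ratio taken alone.

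Array comparative genomic hybridisation lets tumour and reference DNA compete for the same oligonucleotide probes, so that a probe's log2 ratio rises where the tumour holds more copies than the reference and falls where it holds fewer. MPNST are tumours of the Schwann cell lineage in which the loss of Ras inhibition through neurofibromin, loss of the cell cycle inhibitors at the Cdkn2a locus, and widespread gains and losses of chromosomes are well known. Inbred mouse strains also differ from each other in copy number at clusters of repeated genes such as Skint, Klra and the interferon-inducible and olfactory receptor families.

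The probes on which the main focal results rest are printed here, so that each value below can be traced to the DNA it was read from. They are the strand on the array, 5′ to 3′, at their mm9 positions as the array's own annotation gives them. The probes of Cdkn2a, a locus of overlapping genes for p16Ink4a and p19Arf that hold back cell division, lie at chr4:88934358-88934417 and chr4:88938065-88938124.
Cdkn2a probe 1: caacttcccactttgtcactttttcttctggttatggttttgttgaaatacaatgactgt
Cdkn2a probe 2: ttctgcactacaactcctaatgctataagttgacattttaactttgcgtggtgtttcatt
Myc, a transcription factor that drives growth, had 1 probe at chr15:61818043-61818102.
Myc: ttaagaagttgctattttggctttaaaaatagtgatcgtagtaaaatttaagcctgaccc
Alad, an enzyme of haem synthesis, was read at chr4:62172054-62172105 and chr4:62179054-62179113, and is shown because these probes divided the mixed tumours into high and near-zero ones.
Alad probe 1: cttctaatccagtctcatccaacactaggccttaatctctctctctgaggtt
Alad probe 2: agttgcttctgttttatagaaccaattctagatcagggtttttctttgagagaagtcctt
Tom1l1 (chr11:90535960-90536019) and Gapdhs (chr7:31523443-31523502) supplied probes at which all mixed tumours lay above all C57BL/6J ones, and Tead1 (chr7:119949016-119949075) one at which all lay below.
Tom1l1 probe 1: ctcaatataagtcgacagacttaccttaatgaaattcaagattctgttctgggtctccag
Gapdhs: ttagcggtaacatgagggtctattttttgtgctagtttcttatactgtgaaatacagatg
Tead1 probe 2: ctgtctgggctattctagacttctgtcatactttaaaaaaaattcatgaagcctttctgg

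Each of the 8 arrays read 43020 spots, and autosomal probes lay a median of 21.5 kb apart. In each mixed array at least 99.4% of the probes were bright enough in tumour and reference to stand well above background, and the probe-to-probe noise had an SD of 0.180 to 0.241 on the log2 scale. A18, 231 Trig and A202 shared slide 1 with B86 and had a different scanner from A390, A292, A382 and A394 on slides 2 and 3. Their net tumour signal ran from 538 to 606 and their share of discarded spots from 0.72 to 1.99%, against 0.06 to 0.11% on the later slides. Every value is relative to the tumour's own autosomes, whose median probe was set to 0. The arrays held no probe named for any of the 13 lymphocyte antigen receptor genes looked for, and DNA ratios carry no expression, so the labelled cell type could not be checked by markers.

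Nrg1, the gene whose product the transgene encodes, was looked at first. Its 2 probes gave a log2 ratio of -0.56 in A202, -0.29 in the middle tumour and -0.20 in 231 Trig. All 7 values lay below 0, with a mean of -0.31 ± 0.12 (SD, n = 7; limma adjusted p = 0.000758), against -0.18 ± 0.19 (SD, n = 4) in the C57BL/6J tumours. Which of these probes, if any, lie in the DNA carried by the transgene was not tested, so they give no check of the genotype.

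Across whole chromosomes, the mixed tumours shared a high ratio on chromosome 11 and differed on nearly every other autosome. The median log2 ratio of chromosome 11 was 0.50 in A394, 0.67 in A292 as the middle tumour and 1.06 in A202. The other 18 autosomes had means between -0.160 and 0.127. The mean of 0.72 ± 0.20 on chromosome 11 gave an exact two-sided sign-flip p of 0.0156, the smallest that 7 tumours allow, and an adjusted p of 0.0495 over the 19 autosomes. In all, 6 autosomes (31.6% of 19) passed this test, and the other 5 were shallow negatives in which every tumour lay below 0: chromosomes 4 (-0.09 ± 0.11), 13 (-0.13 ± 0.11), 14 (-0.15 ± 0.13), 16 (-0.12 ± 0.16) and 18 (-0.14 ± 0.08). Few tumours reached -0.2: 1 of 7 on chromosomes 4 and 18 and 2 of 7 on chromosomes 13, 14 and 16. The middle tumour lay at -0.04, -0.08, -0.11, -0.03 and -0.14 on these 5 autosomes, and matched the mean only on chromosome 18. The C57BL/6J tumours averaged -0.08, -0.10, 0.00, -0.06 and -0.15 in the same order. Slide 1 moved with some of these autosomes. Its 3 mixed tumours averaged -0.146, -0.215 and -0.243 on chromosomes 4, 13 and 14, against -0.045, -0.071 and -0.086 in the other 4 mixed tumours. On chromosome 16 the 2 sets were close (-0.138 and -0.114), and on chromosome 18 the order was the opposite (-0.094 and -0.170). The part of the slide in these values was not tested. Chromosome 8 (-0.16 ± 0.13, adjusted p = 0.085) and chromosome 9 (-0.13 ± 0.17, adjusted p = 0.111), in exact sign-flip tests, missed the threshold. With 7 tumours able to give no smaller p, all 6 calls ended under centring on the array's mode, centring without chromosome 11, a normexp background correction, or leaving out slide 1 or any 1 tumour. Under the other centrings and normexp chromosome 11 averaged 0.73 to 0.76 (sign-flip adjusted p = 0.0594). That adjusted p depends on how many autosomes share the smallest p. Leaving out 1 tumour allowed no p below 0.0312, so those lost calls do not show that chromosome 11 rested on 1 tumour. Without slide 1 too few mixed tumours remained for the sign-flip test to pass any autosome, so that setting could not have kept a call.

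**Figure D1:**
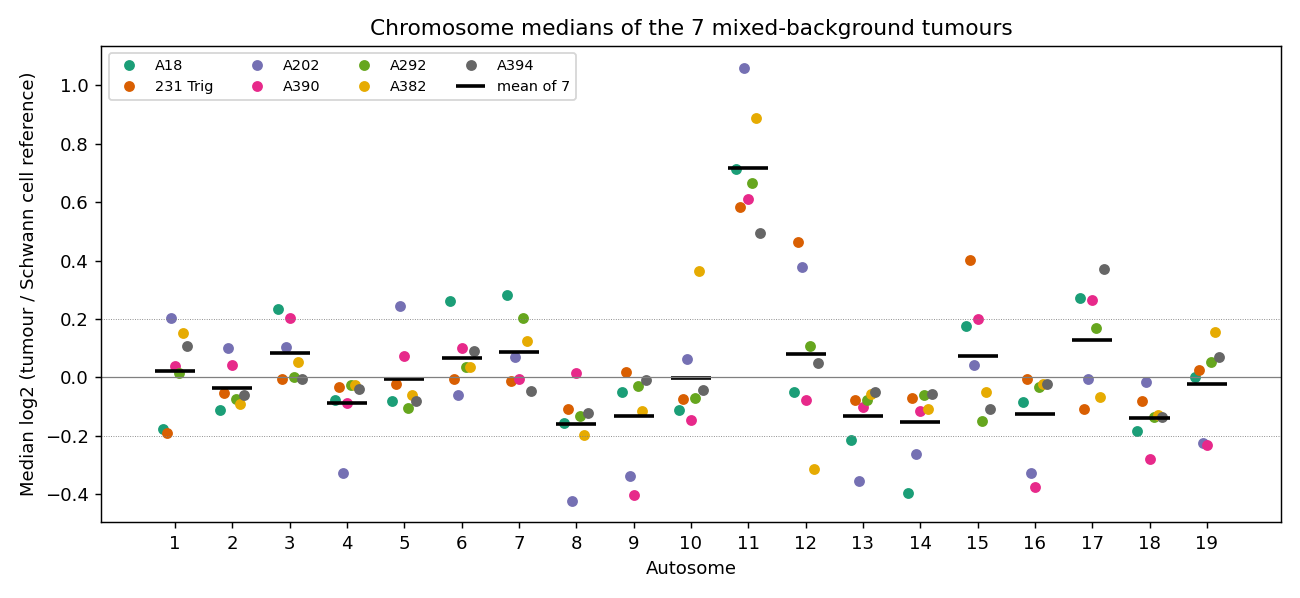
Median log2 ratio of tumour over Schwann cell reference (vertical axis) on each of the 19 autosomes (horizontal axis), 1 point for each of the 7 mixed tumours, a black bar at their mean and dotted lines at 0.2 and -0.2. Chromosome 11 is the one autosome on which all 7 points lie above 0.2, from 0.50 to 1.06. A202 on chromosome 4 and A382 on chromosome 10 stand away from the others. On chromosome 12, 231 Trig and A202 lie high and A382 low.

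Beyond chromosome 11, whole-chromosome changes formed a different set in each tumour. A202 had the most losses, with medians of -0.42 on chromosome 8, -0.36 on 13, -0.34 on 9, -0.33 on both 4 and 16, -0.26 on 14 and -0.23 on 19, and gains of 0.38 on 12, 0.24 on 5 and 0.20 on 1. A390 combined losses of -0.40 on chromosome 9, -0.37 on 16, -0.28 on 18 and -0.23 on 19 with gains of 0.26 on 17 and 0.20 on both 3 and 15. A18 lost chromosomes 14 (-0.40) and 13 (-0.21) and gained chromosomes 7 (0.28), 17 (0.27), 6 (0.26) and 3 (0.23). 231 Trig had no autosome at or below -0.2 and gained chromosomes 12 (0.46) and 15 (0.40). A382 gained chromosome 10 (0.36) and lost chromosome 12 (-0.31), the chromosome that 231 Trig and A202 gained. A394 had only chromosome 17 (0.37) past 0.2 beside chromosome 11, and A292 only chromosome 7 (0.20). No chromosome other than 11 reached 0.2 in more than 3 of the 7 tumours.

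Parts of chromosomes were involved as well. The first 19.4 Mb of measured chromosome 17 (chr17:3023355-22411687), which holds Tiam2, a Rac exchange factor, and Nox3, an NADPH oxidase of the inner ear, was called gained in 4 of 7: 0.46 in A394, 0.38 in A390, 0.31 in A18 and 0.27 in A292. The other 3 tumours lay between -0.08 and 0.04, so these values fell into a high and a near-zero group. In the C57BL/6J tumours the same stretch ran from -0.06 to 0.38, and up to 3 of them were called. A382 had its loss of chromosome 12 in 2 steps, -0.23 up to chr12:86322139 and -0.45 from chr12:86353823 on. A18 had a gain of 0.33 over the start of chromosome 1 (chr1:4336501-23108138), while the remainder of that chromosome lay at -0.20.

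The 2 channels were then looked at apart, because a reference that deviates moves every ratio. On chromosome 11 the Schwann cell channel lay at -0.53 ± 0.04 (SD, n = 8 arrays) on the log2 scale against its own autosomal median, while its other autosomes ran from -0.09 to 0.16. The tumour channel of chromosome 11 was -0.02 in A394, 0.01 in 231 Trig, 0.12 in A390, 0.14 in A18, 0.15 in A292, 0.35 in A382 and 0.45 in A202. Only A382 and A202 lay past 0.2 in their own DNA, and these were also the 2 with the highest ratios. The mean of 0.17 ± 0.17 (SD, n = 7) missed the threshold, with an exact sign-flip adjusted p of 0.111 over 19 autosomes, and a value without the adjustment for GC content was 0.21 with an adjusted p of 0.0371. In the tumour channel 7 autosomes passed, of which chromosomes 7 and 17 were high and 4, 9, 13, 14 and 16 low. Signals of a single channel carry probe effects that a ratio cancels, so these levels are coarser than the ratios.

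**Figure D2:**
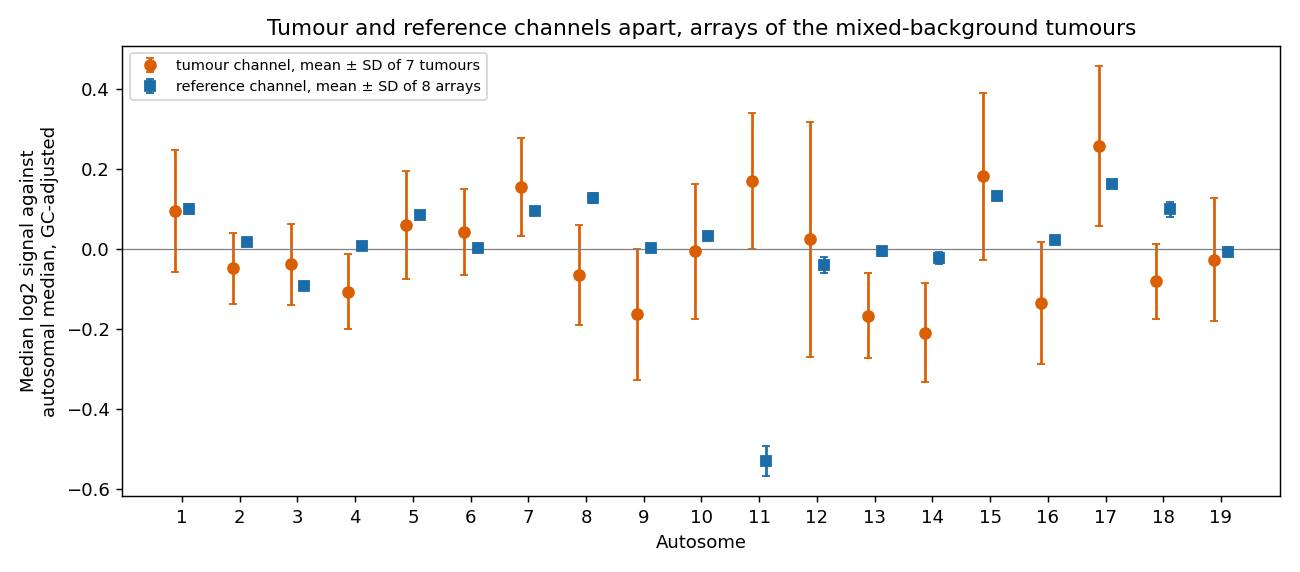
Median log2 signal of each autosome against the autosomal median of the same channel, adjusted for probe GC content, on the arrays of the mixed tumours: orange circles are the mean ± SD of the tumour channel over 7 tumours and blue squares that of the reference channel over 8 arrays. The reference lies at -0.53 on chromosome 11 and within -0.09 to 0.16 on the others, while the tumour channel of chromosome 11 lies at 0.17.

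The share of the autosomal genome in called segments, meaning segments whose mean was at least 0.2 in size, ranged widely. It was 11.8% in A394, 13.1% in A292, 20.8% in 231 Trig, 22.2% in A382, 33.4% in A390, 37.7% in A202 and 39.9% in A18. Gains made up 28.1% in A18, whereas losses made up 26.6% in A202, and in A292 and A394 losses covered 0.04 and 0.19%. The mean of 25.6 ± 11.5% (SD, n = 7) compared with 27.3 ± 9.96% (SD, n = 4) in the C57BL/6J tumours, and the 2 groups overlapped throughout (difference -1.68 percentage points, exact permutation p = 0.809 over 330 splits). Gains covered 15.7 ± 5.90% in the mixed tumours and 24.9 ± 6.59% in the C57BL/6J tumours, a difference of -9.20 points with an exact permutation p of 0.0485 that became 0.242 when adjusted over the 5 measures compared. Losses covered 9.90 ± 9.36% and 2.38 ± 3.77% respectively, with an adjusted p of 0.369 in the same exact permutation test. Hence no measure of the amount of change separated the strain backgrounds after adjustment.

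**Figure D3:**
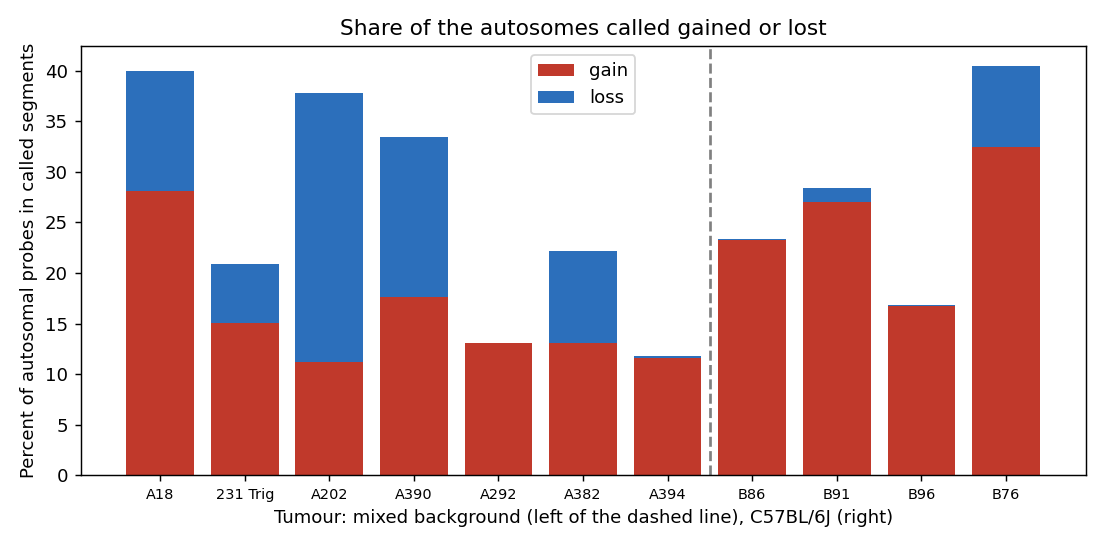
Percent of autosomal probes in called segments (vertical axis) in each of the 7 mixed tumours, left of the dashed line, and the 4 C57BL/6J tumours, right of it, with gains in red and losses in blue stacked on them. Losses reach 26.6% in A202 and 15.8% in A390 and are below 0.2% in A292 and A394.

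Deep, short losses lay over the Cdkn2a locus. At Cdkn2a probe 1 the log2 ratio was -4.84 in 231 Trig, -3.54 in A382, -3.31 in A394, -1.12 in A292, -0.58 in A202, -0.33 in A390 and -0.25 in A18, and probe 2 gave -4.30, -3.67, -3.73, -0.83, -0.26, -0.01 and 0.12 in the same order. The tumours thus formed 3 very low ones, A292 at an intermediate level, and 3 near or shallowly below 0. The mean over both probes was -1.90 ± 1.92 (SD, n = 7; limma adjusted p = 0.00586), lower in 7 of 7. The C57BL/6J tumours had a mean of -2.98 ± 2.12, and the difference of 1.08 had an adjusted p of 0.641 in limma and a 95% interval from -0.97 to 3.13.

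The called losses of 231 Trig, A382, A394 and A292 did not have the same ends. In 231 Trig the low values reached from chr4:87528308 to chr4:89039446 and took in Mllt3, Focad, Hacd4, type I interferon genes, Klhl9 and Mtap. Mllt3, a transcription elongation cofactor, was at -5.14 there, and the fatty acid elongation enzyme Hacd4 at -5.55. In A382 the called segment spanned chr4:88829228-89039446 with a median of -3.54, and in A394 chr4:88822721-88944027 with a median of -2.74. The segment of A394 opened at a probe of Mtap that was at only -0.33 in that tumour. Called segments held at least 5 probes, so their ends need not be those of the loss itself. Mtap, the methionine salvage enzyme next to Cdkn2a, separated these tumours: it was -4.06 in 231 Trig but -0.88 in A382 and -0.27 in A394. A292 had a median of -0.58 over chr4:88811955-89039446. A202, whose whole chromosome 4 had a median of -0.33, was equally low over that stretch (-0.58). The mean for Mtap was -0.99 ± 1.37 (SD, n = 7; limma adjusted p = 0.0332), and the other 6 tumours lay between -0.88 and -0.27. That call ended without A18 (adjusted p = 0.0551) or without A202 (adjusted p = 0.0815), and without 231 Trig the mean was -0.47.

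**Figure D4:**
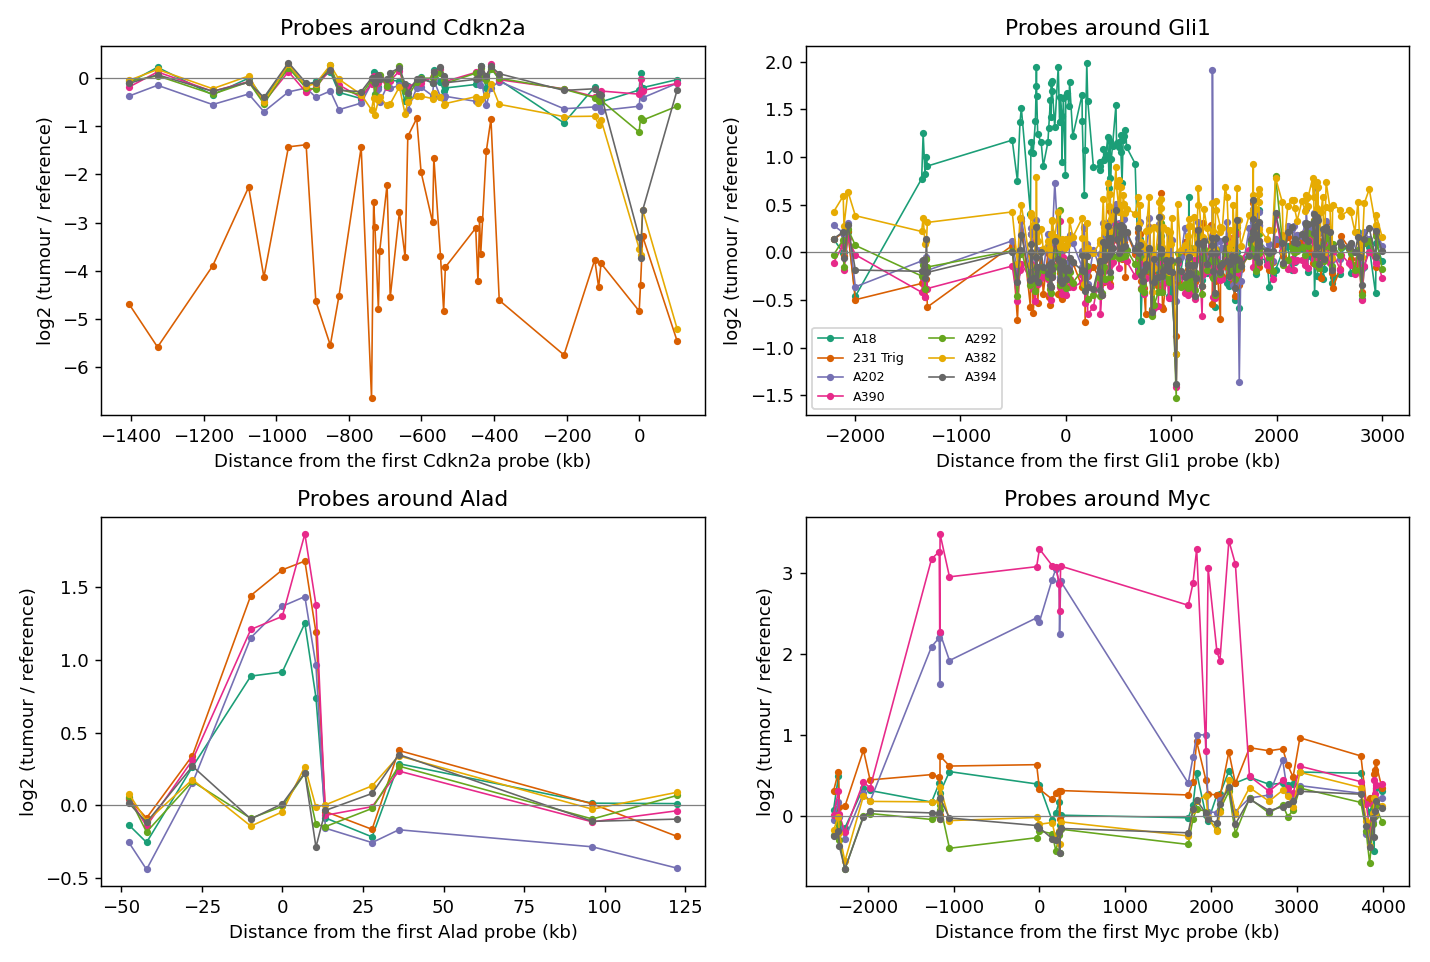
Log2 ratio of single probes (vertical axis) against their distance in kb from the first probe of Cdkn2a, Gli1, Alad or Myc (horizontal axis), 1 line for each of the 7 mixed tumours. 231 Trig is low over the whole Cdkn2a panel, A382 and A394 only at its right end, A18 alone forms a raised block around Gli1, 4 tumours rise at Alad, and A390 and A202 rise around Myc.

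The highest gains outside chromosome 11 were amplicons on chromosome 15. Myc stood at 3.30 in A390 and 2.40 in A202, and at -0.19 to 0.39 in the other 5 tumours, so the 2 amplified tumours were far from the rest. Among the C57BL/6J tumours it was higher still in B76 (4.47), while B86, B91 and B96 lay between -0.17 and 0.23. Over the mixed tumours alone, Myc was tested as follows. The mean of 0.86 ± 1.41 (SD, n = 7; limma adjusted p = 0.0648) did not pass, but it passed when 231 Trig, A292, A382 or A394 was left out (limma adjusted p from 0.031 to 0.049). Both amplified stretches opened at the same probe, chr15:60562387, and that of A202 closed at chr15:62065330 with a median of 2.33. In A390 it ran on to chr15:63648246 (median 3.08), followed by chr15:63755453-64098743 (median 2.56) with Cyrib, a regulator of Rac signalling, and Asap1, an Arf GTPase-activating protein. A390 held 2 further amplicons on the same chromosome. One, chr15:3229082-4824354 with a median of 3.02, carried the growth hormone receptor Ghr (3.06), the selenium transport protein Selenop (3.19) and Fbxo4, an F-box protein (2.83). The other, chr15:71284306-72565804, had a median of 3.06 and took in part of Trappc9, a trafficking complex subunit. In the remaining 6 mixed tumours the 2 stretches lay between -0.11 and 0.51.

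A18 held its own set of short changes. Gli1, a transcription factor of the hedgehog pathway, was 1.64 in A18 and -0.44 to 0.14 in the other 6, inside a gain of chr10:125404379-127428063 (median 1.17) that also held Lrig3, a negative regulator of receptor tyrosine kinases, and Atp23. A second gain, chr7:12807782-14904306, had a median of 1.25 and covered the vomeronasal receptor genes Vmn1r82 (1.35) and Vmn1r84 (1.52) and Zfp606. Losses of A18 took in Ywhab and the Hippo pathway kinase Stk4 (chr2:163824666-163963918, -0.92), Anxa7 and the calcineurin subunit Ppp3cb (chr14:21244123-22200757, -0.92), and the pro-apoptotic gene Bbc3 (chr7:16685201-17087419, -0.76). At the first of these the other mixed tumours lay between -0.19 and 0.11. A292 had a loss of -0.71 at Meox2 and Agmo (chr12:37823407-37970335), and A390 one of -0.72 at Olfml2b and Atf6 (chr1:172531136-172637855).

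Several short stretches split the mixed tumours in ways that the long segments did not. Over chr4:62144188-62182553, which holds Hdhd3 and Alad, the median was 1.44 in 231 Trig, 1.30 in A390, 1.15 in A202 and 0.89 in A18, but 0.01 in A394 and -0.01 in both A292 and A382. The values thus formed a high and a near-zero group with nothing between, and the C57BL/6J tumours (-0.08 to 0.10) all lay with the second. Alad averaged 0.86 ± 0.73 (SD, n = 7; limma adjusted p = 0.00215), and the difference of 0.78 from the C57BL/6J tumours had an adjusted p of 0.485 and a 95% interval from 0.15 to 1.40. The high group held all 3 tumours of slide 1 and A390 of slide 2, and B86 on slide 1 was not high. The call for Alad ended when the slide 1 arrays were left out. Bspry, a single probe at the edge of the stretch, did not divide the tumours: it lay between 0.15 and 0.34 in all 7.

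A stretch of olfactory receptor genes, singled out after its values were seen, was graded rather than divided. Over chr2:86057282-86087288, with Olfr1046 and Olfr1048, the median was -3.99 in A18, -3.36 in A202, -1.19 in 231 Trig, -0.75 in A390, -0.71 in A394, -0.69 in A292 and -0.06 in A382. The C57BL/6J tumours gave -0.20 to 0.10, so 6 of the 7 mixed tumours lay below all 4 of them. The low values were interrupted: Olfr1040, further up the same cluster, was at -3.74 in A18, whereas Olfr1043, Olfr52 and Olfr1045 between the low probes lay at -0.07 to 0.01 in that tumour. Olfr1048 averaged -1.62 ± 1.46 (SD, n = 7; limma adjusted p = 0.00295), and without the 3 tumours of slide 1 it averaged -0.66. Its difference of -1.50 from the C57BL/6J tumours had an adjusted p of 0.485 in limma.

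At other such clusters both strain groups held tumours away from 0. The Skint genes, which shape epidermal T cells, were raised over chr4:111656718-112130148 in 6 of 7 mixed tumours, at 0.49 to 0.89, with A18 at -0.04. All 4 C57BL/6J tumours were called there too (0.57 to 0.91). Over chr1:173433614-173494003, with the intelectin Itln1 and the natural killer receptor gene Cd244a, 231 Trig (-1.60) and A292 (-1.45) were low, A394 was at -0.45, and the other 4 lay between 0.00 and 0.38. The 4 C57BL/6J tumours were all low (-1.70 to -0.92). On chromosome 11 the cDNA clone AK155119 beside St6galnac1, a sialyltransferase, was high in every mixed tumour, with 2.03 to 3.35 over chr11:116615844-116640439. The C57BL/6J tumours were high there too (1.86 to 2.64), and the reference channel lay at -2.08 over the stretch.

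Gene by gene, 3376 of 19961 autosomal genes rose (16.9%) and 3238 fell (16.2%), together 33.1%, a call needing a limma adjusted p below 0.05 and a mean of at least 0.2 in size. Chromosome 11 held 1491 of the rises, or 95.8% of its 1556 genes. Outside it 1885 genes rose (10.2%) and 3234 fell (17.6%), yet only 22 and 21 of these lay in segments whose mean over the 7 tumours reached 0.2 in size in that direction. In all, 45.3% of genes had 1 probe, and with the running median of 5 probes 2476 rose (12.4%) and 1877 fell (9.4%). The shift shared by all genes was small, with a median of gene means of -0.01.

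Among the genes with the largest means outside the loci above were single-probe genes with little or no support from their neighbours. The olfactory receptor Olfr643, with no value in A202, averaged 1.09 ± 0.36 (SD, n = 6) on the gene scale and 0.01 on the running median of 5 probes. Nxpe5 averaged -2.26 ± 0.86 (SD, n = 7), with -3.16 in 231 Trig and -0.67 in A202, and -0.04 on the running median. The clone AY512931 averaged -1.74 ± 0.66 and -0.21 on the running median, where it still passed (limma adjusted p = 0.0179). The clone AK036813, close to Myc, followed the amplicon instead, from 0.14 in A292 to 3.49 in A390. Nxpe5 and AY512931 were also low in the C57BL/6J tumours (-2.58 and -1.88), which share the reference.

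The 16 tumour suppressors measured had a median of -0.07, and 4 of them rose, 4 fell and 8 missed the test, against a median of -0.01 over all genes, of which 16.9% rose and 16.2% fell. All 4 that rose lie on chromosome 11: Trp53, the DNA damage transcription factor (0.99 ± 0.33), Nf2, which encodes merlin (0.88 ± 0.21), the Polycomb subunit Suz12 (0.69 ± 0.19) and the Ras inhibitor Nf1 (0.68 ± 0.21). These are raised against a reference that was itself low on that chromosome. Nf1 was 0.43 in 231 Trig, 0.62 in the middle tumour and 1.02 in A202, and none of the 7 had a mean over its 4 probes below 0. These probes differed, averaging 0.68, -0.06, 1.29 and 0.80 along the gene. The one at -0.06 ran from -0.36 in A394 to 0.59 in A202. The 4 that fell were Cdkn2a, Mtap, the kinase Stk11 (-0.27) and the cell cycle regulator Rb1 (-0.23 ± 0.27), whose values ran from -0.61 in A202 to 0.00 in A382. The Rb1 call ended without A18 (-0.17), without 231 Trig (-0.22), without A202 (-0.16) and without the 3 tumours of slide 1 (-0.04), and also under mode centring (-0.22), centring without chromosome 11 (-0.20), normexp (-0.12), loess (-0.16) and the running median (-0.13).

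Among 24 receptor tyrosine kinases and ligands, whose median was 0.01, 5 rose, 6 fell and 13 missed the test. Over all genes 16.9% rose and 16.2% fell. Within this list, the EGF receptor gene Egfr (0.68 ± 0.24) and its partner Erbb2 (0.56 ± 0.24) rose with chromosome 11. The neuregulin receptor Erbb3 averaged 0.22 ± 0.17, highest in A382 (0.58), the tumour with the chromosome 10 gain, and at -0.03 on the running median. It no longer passed without A382, at 0.16 with a limma adjusted p of 0.0519. Those that fell included the ligand Hgf (-0.64 ± 0.17) and the receptor Pdgfra (-0.52 ± 0.20), whose surrounding segments averaged -0.05. The C57BL/6J tumours, which share the reference, averaged -0.70 at Hgf and -0.74 at Pdgfra. Pdgfra no longer passed on the running median, at -0.04. Met, the Hgf receptor, did not pass, at 0.03 ± 0.13 (SD, n = 7; limma adjusted p = 0.703), against 0.49 ± 0.21 in the C57BL/6J tumours, a difference whose adjusted p was 0.193.

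Of 31 members of Ras, MAPK and PI3K signalling, 3 rose and 7 fell, with a median of -0.08, where over all genes 16.9% rose and 16.2% fell. The adaptor Grb2 (0.67 ± 0.22) and the mTORC1 subunit Rptor (0.61 ± 0.32) lie on chromosome 11, and Akt2 (0.36 ± 0.10) on chromosome 7. The PI3-kinase subunit Pik3r1 was at -0.47 ± 0.19, with 4 probes and -0.41 on the running median, while Pdk1, a mitochondrial pyruvate dehydrogenase kinase, was at -0.43 ± 0.28 and -0.12 on that measure. The C57BL/6J tumours were also low, at -0.45 for Pik3r1 and -0.46 for Pdk1. Of 22 cell cycle and mitosis genes, 4 rose and 1 fell, with a median of 0.08. Mad2l1, a spindle checkpoint protein on chromosome 6, ran from 0.65 in A394 to 1.27 in A202 and averaged 0.94 ± 0.21, against 0.43 ± 0.21 in the C57BL/6J tumours (difference adjusted p = 0.245 in limma). It had 1 probe, and its surrounding segments averaged 0.06. On the running median Mad2l1 averaged 0.34 and still passed (limma adjusted p = 0.00017). Topoisomerase Top2a (0.67 ± 0.19) and survivin, Birc5 (0.59 ± 0.22), rose with chromosome 11, Foxm1 averaged 0.26, and the Myc partner Max fell by 0.26. On the running median Max averaged 0.00 and no longer passed, and its mean in the C57BL/6J tumours was -0.45.

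Of 15 genes of the DNA damage response and telomeres, Brca1 on chromosome 11 (0.75 ± 0.21) and the end-joining subunit Xrcc6 (0.24 ± 0.23) rose, the telomerase gene Tert fell (-0.30 ± 0.14), and the median was 0.00. Xrcc6 no longer passed without A18, without 231 Trig or without A390 (0.17 to 0.22), nor without slide 1 (0.12). On the running median neither Xrcc6 (0.13) nor Tert (-0.14) passed. The C57BL/6J tumours averaged 0.31 at Xrcc6 and -0.29 at Tert. Of 16 Schwann cell lineage genes, 4 rose and 2 fell, with a median of 0.08. The rises were the neurotrophin receptor Ngfr (0.91 ± 0.21), the transcription factor Sox9 (0.63 ± 0.24) and the myelin gene Pmp22 (0.47 ± 0.16), all 3 on chromosome 11, and Mag (0.28), an adhesion protein of myelin. The growth cone protein Gap43 fell (-0.30 ± 0.25) and no longer passed without slide 1, with a limma adjusted p of 0.075, nor with normexp (-0.16) or the running median (-0.12). Its mean in the C57BL/6J tumours was -0.27. Of 17 hedgehog and Hippo genes none rose and 6 fell, with a median of -0.18, where over all genes 16.9% rose and 16.2% fell. Tead1, a DNA-binding partner of Yap1, averaged -1.27 ± 0.49, Sufu, an inhibitor of Gli proteins, -0.52 ± 0.35, Gli3 -0.49 ± 0.21 and Yap1 itself -0.41 ± 0.17. Their surrounding segments averaged between -0.14 and 0.09, and Sufu no longer passed on the running median (-0.11). The C57BL/6J tumours averaged -0.54 at Tead1, -0.43 at Gli3 and -0.33 at Yap1, but 0.17 at Sufu.

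Loci known to vary between inbred strains supplied 41 measured genes with a median of 0.09, of which 15 rose, 5 fell and 21 missed the test. Over all genes 16.9% rose and 16.2% fell. Skint4 (0.98 ± 0.47), Alad, the natural killer receptor Klra22 (0.74 ± 0.15) and Skint3 (0.66 ± 0.18) had the highest means. Klra22 was also high in the C57BL/6J tumours (1.06 ± 0.26), and the difference of -0.32 had an adjusted p of 0.485 in limma. Dnah8 (-0.45) and Glo1 (-0.34), neighbours on chromosome 17, both fell.

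Set against the C57BL/6J tumours directly, the mixed tumours differed at few loci. No autosome passed (0 of 19). The smallest exact permutation p was 0.030 for chromosome 7, which was higher by 0.161 in the mixed tumours, and its adjusted p was 0.360, with chromosomes 6 (-0.244), 19 (-0.183) and 5 (0.127) at the same adjusted value. Chromosome 11 differed by 0.086 (p = 0.512, exact permutation test). Of the 19961 genes, 3 passed (0.015%), all higher in the mixed tumours: Gapdhs, Tom1l1 and Lmo4. With no adjustment, 2051 genes had a p below 0.05.

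Gapdhs, a glyceraldehyde phosphate dehydrogenase of sperm, lay between -0.34 and 0.32 in the mixed tumours and between -1.49 and -0.82 in the C57BL/6J tumours. The groups did not overlap at its 1 probe, and it was the C57BL/6J tumours, of the reference's own strain, that stood below 0. The difference was 1.23 (95% interval 0.93 to 1.54; limma adjusted p = 0.00302). Tom1l1, an endosomal adaptor on chromosome 11, differed by 1.21 (interval 0.94 to 1.48; limma adjusted p = 0.00167), and this came from 1 of its 2 probes. Probe 1 lay between -0.31 and 1.1 in the mixed tumours and between -2.48 and -1.43 in the others, whereas the groups overlapped at probe 2. Lmo4, a LIM domain transcription cofactor, lay between 0.05 and 0.38 against -0.69 to -0.30, a difference of 0.69 (interval 0.48 to 0.90; limma adjusted p = 0.0233). Without slide 1 all 3 calls ended (limma adjusted p = 0.274), although with fewer tumours the differences stayed at 1.17, 1.09 and 0.73. With the running median of 5 probes they fell to 0.15, 0.11 and 0.13, and the calls ended too.

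Other probes with separate groups did not pass at the gene level. Tead1 probe 2 ran from -3.22 in A18 to -0.72 in A390 in the mixed tumours and from -0.35 to -0.16 in the C57BL/6J tumours, while Tead1 probe 1 overlapped between the groups. The difference over both probes was -0.73 (limma adjusted p = 0.356). Sufu probe 1 ran from -1.50 to -0.08 against 0.15 to 0.45 (gene difference -0.69, adjusted p = 0.193). Olfr643 was higher by 0.91 (adjusted p = 0.0789).

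**Figure D5:**
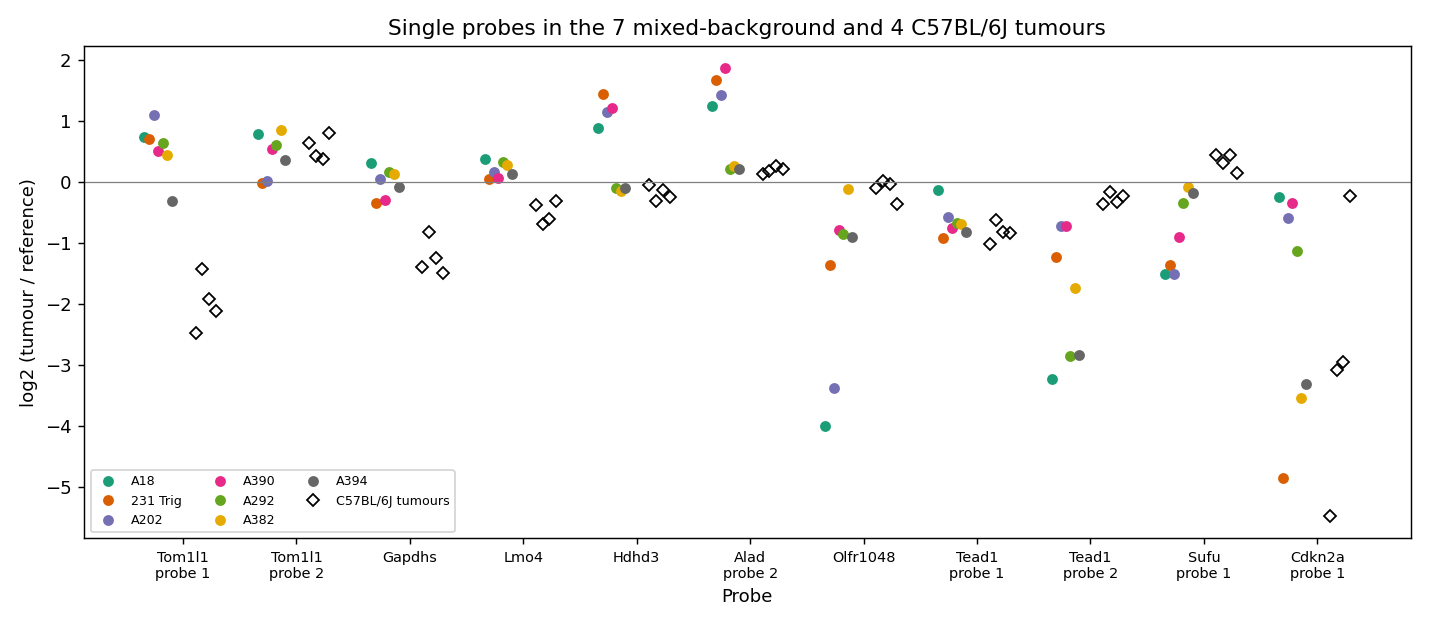
Log2 ratio of single probes (vertical axis) in the 7 mixed tumours (filled circles, coloured by tumour) and the 4 C57BL/6J tumours (open diamonds), with 1 column for each probe named on the horizontal axis. At Tom1l1 probe 1, Gapdhs and Lmo4 all filled circles lie above all diamonds, at Tead1 probe 2 and Sufu probe 1 all lie below, and at Alad probe 2 and Cdkn2a probe 1 the mixed tumours fall into separate levels.

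The 2 arrays of A382 gave a measure of repeatability between passages. Across 24 segments none differed by 0.3 or more between passage 9 and passage 8. The largest difference was 0.17, over chr12:83029959-86353882, where the chromosome 12 loss of this tumour changes its depth, and the largest difference of a chromosome median was 0.09, on chromosome 11. With 1 array at each passage there is no replicate check on these differences.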

How the data were processed

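Genomic DNA was hybridised to 2-colour oligonucleotide arrays and read with Agilent Feature Extraction 9.5 on the mm9 assembly, per the submitters' processing notes and the file headers. The deposited log10 ratio of red (tumour) over green (reference), background-subtracted and dye-normalised by the authors' software, was converted to log2; the deposited processed signal intensity of each channel was used for single-channel levels. Control spots, flagged outliers and the sex chromosomes were left out, and each array was centred on its autosomal median. The deposited value table held the same log10 ratios and was not used further. A gene's value is the mean of its probes. Probes kept the gene name on the array unless their RefSeq accession matched a different current symbol, which replaced it at 4623 of 42404 probes. Tests were limma 3.58.1 in R 4.3.3 over all genes, and exact sign-flip (128 patterns) or permutation (330 splits) tests of chromosome medians, with Benjamini-Hochberg adjustment and a threshold of 0.05. Genes with fewer than 3 values were not tested. Segments came from penalised least squares (penalty 40 noise variances per break, at least 5 probes, single probes held within 3 noise SD of their 5-probe running median), checked on simulated data.

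Genes were named by rule: the highest and lowest passing means, up to 4 passing members of each list, fixed tumour genes, genes of extreme or repeatedly called segments (clone-only names passed over there), and genes passing between strains. Some genes of the rule and lists are not reported here. The tumours, rule and lists were chosen with earlier results of these data known. P-values measure only the spread between these cultures. Exon or intron positions are not given because no annotation of this assembly was used here.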

Additional observations from a re-analysis of the deposited data

Results flagged for a closer look

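Of 111 sets of 7 mixed-tumour values examined, 30 had 1 tumour far from the other 6 by Dixon's test, which chance alone gives in about 1 set of 20. Most of these genes were named because they lie in an extreme segment of that very tumour.

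231 Trig stood apart at the genes around its chromosome 4 deletion: Hacd4 (-5.55), Mllt3 (-5.14), Ifna12 (-4.55), Mtap (-4.06), Ifna13 (-3.72), Klhl9 (-2.99), Focad (-2.96), Pramel32 (-2.78), Ifnb1 (-1.43) and Ifne (-0.85). A390 stood apart in its chromosome 15 amplicons at Asap1 (3.26), Selenop (3.19), Ghr (3.06), Fbxo4 (2.83), Cyrib (2.56) and Trappc9 (1.42).

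A18 was the separate tumour at Gli1 (1.64), Atp23 (1.06) and Lrig3 (0.96) on chromosome 10, at Vmn1r84 (1.52), Vmn1r82 (1.35) and Zfp606 (0.58) on chromosome 7, at Skint4 (-0.022), where the other 6 were high, and in the percent of the autosomes gained (28.1). A202 was separate at Tert (-0.59), Nrg1 (-0.56), Pdgfra (-0.10) and the median of chromosome 4 (-0.33). A382 was separate at Erbb3 (0.58) and at the median of chromosome 10 (0.36), on which Erbb3 lies.

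A difference between the mixed and the C57BL/6J tumours passed limma's test at Gapdhs (1.23), Tom1l1 (1.21) and Lmo4 (0.69), higher in the mixed tumours each time.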

How the results depend on the processing

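The alternatives were other centrings, background corrections and normalisations, discarded or dim spots, slide 1 left out or slide as a block, 1 passage of A382, a running median of 5 probes, single probes as the unit, other segment settings, and each tumour left out in turn. Of 171 alternative values of the main results 32 were weaker, 10 stronger and 1 moved, and the others kept their direction and side of the threshold. Of 2337 for single genes and chromosomes, 5 turned their direction.

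The number of autosomes passing fell from 6 to 0 under mode centring, centring without chromosome 11, normexp and without slide 1. The mean of chromosome 11 was then 0.73, 0.74, 0.76 and 0.67, with sign-flip adjusted p from 0.0594 to 0.264. This adjusted p depends on how many autosomes share the smallest p. Without slide 1 the 0 was fixed in advance, since too few mixed tumours remained for this test to pass any autosome. Leaving out each tumour gave 0 autosomes every time and 0.66 to 0.75 on chromosome 11, 6 tumours allowing no p below 0.0312. The tumour channel's 7 passing autosomes likewise became 0 to 0, and without the GC adjustment its chromosome 11 mean of 0.21 passed (adjusted p = 0.0371).

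Genes differing from the C57BL/6J tumours numbered 16 with normexp, 5 without dim probes, and 0 without slide 1 or with the running median. The range was 2 to 10 with each tumour left out. With single probes as the unit 17 differed, 7657 rose and 7083 fell, and 1877 genes fell with the running median. A call threshold of 0.1 raised the mean share called to 45.2%.

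Direction turned for Gli1 without A18 (-0.22, range -0.22 to 0.12 with each tumour left out), Fbxo4 without A390 (-0.25, range -0.25 to 0.29) and Hacd4 without slide 1 (0.22), each by leaving out the tumour or slide that carried the change. It turned for Erbb3 (-0.030) and Gapdhs (0.22) with the running median, where the cause was not tested. Lmo4's difference also lost its call with mode centring (adjusted p = 0.066), with slide as a block (0.111), and without A202, A292, B86, B91 or B96.

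No paired analysis was possible because the sample titles carry tumour names and passages and no replicate numbers shared between the groups. Depth sets no limit here beyond the number of arrays: dim probes bound a few deep losses, and stretches under 5 probes were not called.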
